A study of Arabidopsis thaliana with 36 samples.

Results

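Shoots of an Arabidopsis line that overexpresses PHT5;1, an importer of inorganic phosphate (Pi) into the vacuole, were compared with WT shoots after 3 days of Pi starvation. The line is 35S:PHT5;1-GFP#04 (line 4), in which the PHT5;1 open reading frame is fused to green fluorescent protein behind the cauliflower mosaic virus 35S promoter, active in most tissues. The WT is Col-0. Seedlings of both genotypes were raised on agar with sucrose at 250 μM Pi for 10 days and then kept at 10 μM Pi for 3 days, so that both were 13 days old at harvest. Each genotype had 2 libraries of total shoot RNA from pooled seedlings, 4 of the 36 libraries of the series. Line 4 is a single transgenic line, so that effects of the transgene and of anything else particular to its genome cannot be told apart. Other libraries are set beside these where stated, namely line 12 (35S:PHT5;1-GFP#12) and line 4 roots at the same time, and line 4 and WT shoots at sufficient Pi (250 μM) and after 1 day at 10 μM. The shoots at sufficient Pi came from seedlings 10 days old and those after 1 day from seedlings 11 days old. Between supplies, effects of Pi and of age therefore cannot be told apart.

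All 28496 genes with an AGI locus code were taken from the deposited table of RPKM, read counts scaled to exon length and to the mapped reads of each library. Genes were tested where they averaged 0.25 RPKM or more in the 18 shoot libraries, which 19773 did. The other 8723 were not tested, and 5092 of these were at 0 in all 4 libraries. Differences were taken as line 4 over WT on the scale log2(RPKM + 0.25), which understates the change of genes near 0, and tested with limma in a common model of the 9 shoot groups. A gene was called at a Benjamini-Hochberg adjusted p under 0.05 together with a change of 2-fold or more between group means, with means under 0.25 RPKM set to 0.25. Whole shoots were sampled, so that fewer cells of a type and less RNA per cell cannot be told apart.

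Plants store most of their surplus Pi in the vacuole and draw on it when the external supply fails. When Pi runs low, the MYB factor PHR1 binds a short promoter element called P1BS and turns on genes for Pi uptake, for phosphatases and nucleases that free Pi from organic molecules, and for enzymes that replace phospholipids by galactolipids and sulfolipids. SPX domain proteins bind inositol pyrophosphates when Pi is plentiful and then hold PHR1 back. Genes induced by starvation are called PSi and genes repressed by it PSr.

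Totals recovered from RPKM values and annotated exon lengths were 29.3 and 23.5 M reads in line 4 and 29.3 and 31.6 M in WT, within the 19.0 to 40.7 M of the whole series. A gene of 1500 bases at 0.25 RPKM then stands for 8.80 to 11.9 reads in these 4 libraries. Values of the 2 line 4 libraries differed by a median of 0.14 on the log2 scale and those of the 2 WT libraries by 0.17, against 0.33 to 0.40 between libraries of the 2 genotypes. WT replicate 2 is 1 of 5 shoot libraries of the series with reads in 313 genes that are at 0 in all other shoot libraries. These genes made up 0.278% of the summed RPKM of WT replicate 2, and none of them was called. Markers of green tissue summed to 20487 and 19074 RPKM in line 4, against 30233 and 26792 RPKM in WT, with all 8 of them above 0 everywhere. The 10 root markers summed to 7.45 and 10.2 RPKM in line 4, against 7.26 and 8.11 RPKM in WT, and CASP5 was at 0 in the 4 libraries. The deposited notes describe the column prefixes of shoots and roots differently from the sample labels, which were followed here. Over the series the green markers summed to 19074 to 30762 RPKM in the 18 libraries labelled shoot and 197 to 441 RPKM in the 18 labelled root, and the root markers to 3.41 to 10.2 and 223 to 619 RPKM. Of the root markers, the root hair genes EXPA7, EXPA18, COBL9, LRX1 and PRP3 were highest in line 4 replicate 2 among the 4 libraries compared. Only 4 of the 10 root markers passed the filter, 2 with log2 fold changes above 0 and 2 below it, and none was called.

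The targeted gene was only a little higher in line 4 shoots at this time. PHT5;1 (AT1G63010, chromosome 1, 23347561 to 23352831, TAIR10) stood at 18.9 and 22.0 RPKM in line 4 shoots, against 17.5 and 17.9 RPKM in WT, or 20.4 ± 2.21 RPKM in line 4 and 17.7 ± 0.280 RPKM in WT (SD, n = 2 each). Both line 4 libraries lay above both WT libraries, but the difference did not pass the test (log2 0.20, standard error 0.19, limma adjusted p = 0.44). Reads of the endogenous gene and of the transgene are counted together, and the transgene lacks whatever lies outside the open reading frame. At sufficient Pi the shoot values were 35.5 and 19.0 RPKM in line 4, against 15.2 and 14.7 RPKM in WT (log2 0.79, standard error 0.19, limma adjusted p = 0.024). In roots after 3 days they were 92.4 and 66.1 RPKM in line 4, against 41.1 and 41.7 RPKM in WT (log2 0.91, standard error 0.15, limma adjusted p = 0.0015). Line 12 shoots after 3 days had 56.2 and 52.6 RPKM, above line 4 (line 12 over line 4: log2 1.405, standard error 0.19, limma adjusted p = 0.0041). Its relatives were not called either, with 9.03 and 8.20 RPKM in line 4, against 9.21 and 10.4 RPKM in WT for PHT5;3 (log2 -0.18, adjusted p = 0.3) and at most 0.155 RPKM for PHT5;2, which was below the filter.

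Another gene separated line 4 from WT completely. PAP26 (AT5G34850, chromosome 5, 13107626 to 13111656), a purple acid phosphatase of the vacuole and cell wall, had 0.0337 and 0 RPKM in line 4 shoots, against 61.0 and 65.3 RPKM in WT (log2 -7.89, standard error 0.16, limma adjusted p = 4.3e-12). It stayed at or below 0.387 RPKM in all 24 libraries of lines 4 and 12, at every Pi supply and in both tissues, and at 61.0 RPKM or more in all 12 WT libraries. PTAC18, annotated as a protein of the transcriptionally active plastid chromosome, had 3.32 and 1.83 RPKM in line 4, against 39.8 and 37.6 RPKM in WT (log2 -3.84, adjusted p = 1.4e-07). BGAL9, a beta-galactosidase of the cell wall, had 4.52 and 5.32 RPKM in line 4, against 14.4 and 14.4 RPKM in WT (log2 -1.51, adjusted p = 6.1e-06). All 3 were also called lower at the other supplies and in the root. Their effects at sufficient Pi were log2 -8.05, -3.26 and -1.44, and in roots at 3 days -9.06, -3.12 and -3.96. These 3 were chosen with their values in both lines already known.

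**Figure D1:**
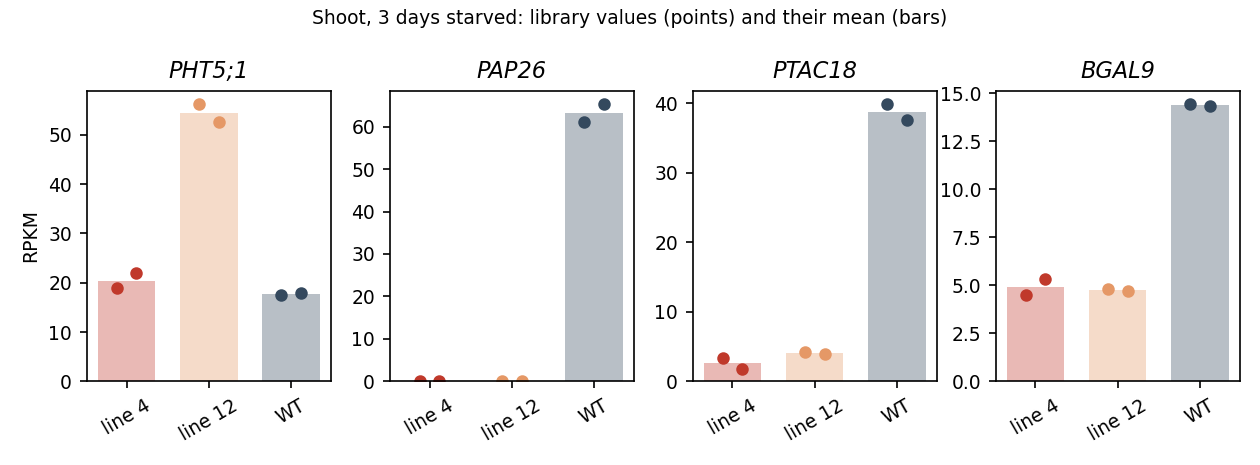
RPKM of PHT5;1, PAP26, PTAC18 and BGAL9 in shoots of line 4, line 12 and WT after 3 days of starvation, with a point for each of 2 libraries and a bar for their mean. PHT5;1 was close to the WT level in line 4 and above it in line 12, while PAP26 was near 0 in both lines and at 61.0 RPKM or more in WT.

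Of the 19773 genes tested, 754 (3.81%) were higher and 871 (4.40%) were lower in line 4 shoots than in WT after 3 days. In 753 of the higher genes and all 871 lower genes both line 4 libraries lay beyond both WT libraries. Without line 4 replicate 2 the higher genes numbered 495, and without any other library 571 to 878. The median over all tested genes was a log2 fold change of 0.16 and became 0.01 when libraries were rescaled by their median ratio, a shift of -0.16. With that rescaling 491 genes were higher and 1156 lower, so that higher genes made up 29.8% of the calls instead of 46.4%. Medians of gene lists below are to be read against the 0.16 of all genes.

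The 12 genes that rose most are given here as single genes. PAD3, the cytochrome P450 of the last step to the phytoalexin camalexin, had 26.9 and 44.5 RPKM in line 4 shoots, against 0.821 and 2.97 RPKM in WT (log2 4.23, standard error 0.56, limma adjusted p = 9.9e-05). MIOX2, a myo-inositol oxygenase that opens the inositol ring towards glucuronate, had 153 and 146 RPKM in line 4, against 5.22 and 13.3 RPKM in WT (log2 4.12, adjusted p = 1.6e-06). ERD5, the mitochondrial proline dehydrogenase, was the most abundant of the 12 largest increases, with 527 and 583 RPKM in line 4, against 30.8 and 45.4 RPKM in WT (log2 3.88, adjusted p = 7.9e-08). For DIN11, an oxygenase first found as a transcript of leaves kept in the dark, values were 38.3 and 43.4 RPKM in line 4, against 1.72 and 3.40 RPKM in WT (log2 3.93, adjusted p = 3e-07). That the libraries of the 2 genotypes did not overlap was a condition for choosing the 12. The remaining 8 were AT2G38240 (a 2-oxoglutarate-dependent oxygenase), MDHAR (a monodehydroascorbate reductase), AT5G46890 (a lipid-transfer-like protein at 0 in both WT libraries, so that its value depends on the added 0.25), AT5G02760 (APD7, a protein phosphatase 2C), IAA29, YUC9, BCAT-2 (a transaminase of branched-chain amino acids) and AT2G18010 (SAUR10), with log2 fold changes of 3.15 to 4.11.

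After PAP26, the largest decreases included LSU1, LSU2 and LSU3, small proteins named for their response to low sulfur. LSU1 had 0.795 and 0.496 RPKM in line 4 shoots, against 18.16 and 16.99 RPKM in WT (log2 -4.33, standard error 0.62, limma adjusted p = 0.00018). LSU3 had 1.04 and 0.520 RPKM in line 4, against 13.9 and 10.5 RPKM in WT, and LSU2 had 3.93 and 1.53 RPKM in line 4, against 24.02 and 22.7 RPKM in WT. SQP1, a squalene epoxidase-like enzyme, fell to 0.916 and 0.663 RPKM in line 4, against 17.05 and 14.5 RPKM in WT. The neighbouring AT5G24155, annotated as an oxidoreductase of the same family, fell to 0.272 and 0.792 RPKM in line 4, against 11.7 and 9.65 RPKM in WT. If reads are shared between these paralogs, their values are not independent. AT5G64170 (LNK1), a coactivator of the circadian clock, had 1.17 and 0.938 RPKM in line 4, against 14.4 and 14.3 RPKM in WT (log2 -3.48, adjusted p = 2.8e-08). The others were AT1G13650 (similar to a ribosome assembly protein), PTAC18, AT1G73600 (a methyltransferase, 8.74 and 8.41 RPKM in line 4, against 89.6 and 101 RPKM in WT), AT3G21670 (NPF6.4, of the nitrate transporter family) and UMAMIT36, with log2 fold changes of -4.16 to -3.23.

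Many of the genes that were higher in WT after 1 day of starvation were called lower in line 4 after 3 days. To keep the sets independent of the 3-day libraries, PSi and PSr genes were those called higher or lower in WT after 1 day against sufficient Pi, 779 (3.94%) and 422 (2.13%) of the tested genes. The seedlings compared were 11 and 10 days old, so that these sets may also hold genes that changed with age. After 3 days 385 of the 779 PSi genes (49.4%) were lower in line 4 than in WT and 11 (1.41%) were higher, with a median log2 fold change of -0.97. Of the 422 PSr genes, 177 (41.9%) were higher and 5 (1.18%) lower, with a median of 0.81. In all, 712 of the PSi genes lay below 0 and 368 of the PSr genes above it. Over all 19773 tested genes, 7073 lay below 0 and 12696 above it. Summed RPKM of the PSi genes came to 10926 and 12499 in line 4, against 22023 and 26520 in WT. For the PSr genes the sums were 23854 and 24120 in line 4, against 11238 and 11715 in WT. These sums did not overlap. Neither did the sums of all tested genes, at 739180 and 737010 RPKM in line 4, against 766780 and 746890 RPKM in WT. When the libraries were rescaled and the sets called anew, 502 of 913 PSi genes were lower and 115 of 330 PSr genes higher. With the original sets and rescaled libraries, 449 of the 779 PSi genes were lower and 136 of the 422 PSr genes higher.

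**Figure D2:**
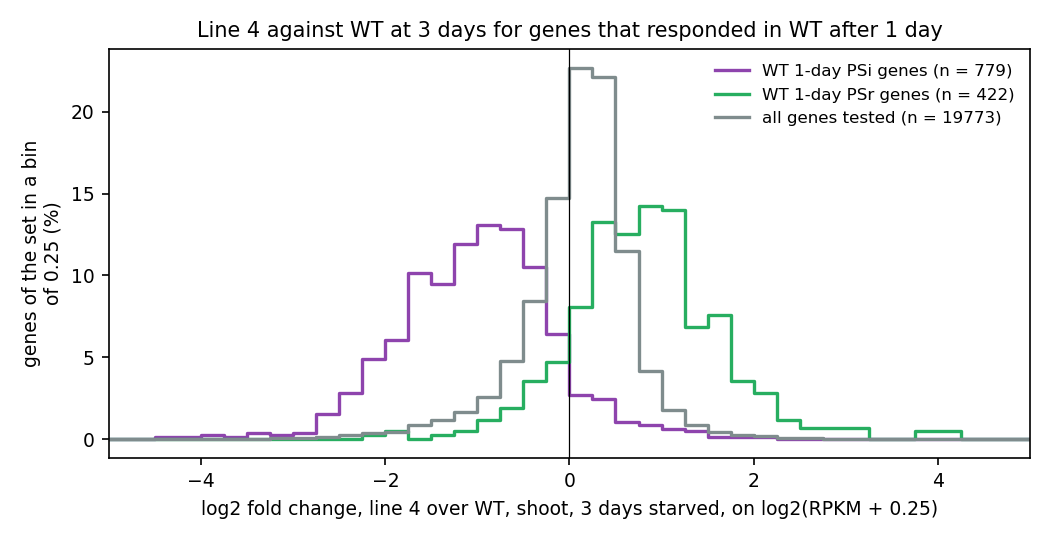
Share of genes (%) in bins of 0.25 of the log2 fold change, line 4 over WT in shoots after 3 days of starvation, for WT 1-day PSi genes, WT 1-day PSr genes and all genes tested. The PSi genes are centred at -0.97 and the PSr genes at 0.81, on either side of the median of 0.16 of all genes.

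Known phosphate genes were examined in 10 lists by role, with 109 genes in all, of which 90 were tested. Of these, 26 were lower and 4 higher in line 4 (28.9% and 4.44%, against 4.40% and 3.81% of all genes), with a median of -0.22. The P1BS element, searched as GNATATNC on both strands, stood in the 250 bases before the RefSeq gene start (TAIR10.1) in 9 of the 26 lower phosphate genes (34.6%), in 12 of the 64 others (18.8%) and in 5.44% of all 28008 genes with such a stretch. The 5 stretches below are shown because they belong to a sensor, a lipid-degrading phospholipase, a glycerophosphodiesterase and transcription factors that all fell in line 4. Each is the 250 bases that end next to the gene start, read 5′ to 3′ in the direction of the gene, with P1BS in capitals. They lie at chr2:18606160-18606409, plus strand (SPX3), chr3:1634944-1635193, plus strand (PLDZ2), chr3:350011-350260, minus strand (GDPD1), chr5:1217363-1217612, minus strand (ZAT6) and chr1:8976076-8976325, plus strand (HHO3).
SPX3: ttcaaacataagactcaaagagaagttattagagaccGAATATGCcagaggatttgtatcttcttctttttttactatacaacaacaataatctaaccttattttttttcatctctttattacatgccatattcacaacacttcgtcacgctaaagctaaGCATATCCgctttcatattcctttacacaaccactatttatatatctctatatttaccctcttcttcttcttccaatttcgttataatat
PLDZ2: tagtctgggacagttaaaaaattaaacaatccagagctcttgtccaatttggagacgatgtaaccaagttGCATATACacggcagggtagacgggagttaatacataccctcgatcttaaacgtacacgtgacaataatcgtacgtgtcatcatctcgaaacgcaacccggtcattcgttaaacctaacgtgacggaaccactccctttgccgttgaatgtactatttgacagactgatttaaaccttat
GDPD1: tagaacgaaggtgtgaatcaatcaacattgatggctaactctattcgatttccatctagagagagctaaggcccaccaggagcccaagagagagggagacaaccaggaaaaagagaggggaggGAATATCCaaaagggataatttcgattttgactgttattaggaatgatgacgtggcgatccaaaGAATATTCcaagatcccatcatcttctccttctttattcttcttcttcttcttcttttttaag
ZAT6: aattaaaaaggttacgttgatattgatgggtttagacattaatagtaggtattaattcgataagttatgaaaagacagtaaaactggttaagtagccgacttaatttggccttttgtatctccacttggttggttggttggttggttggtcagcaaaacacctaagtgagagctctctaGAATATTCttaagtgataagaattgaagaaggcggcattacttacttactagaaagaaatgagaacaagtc
HHO3: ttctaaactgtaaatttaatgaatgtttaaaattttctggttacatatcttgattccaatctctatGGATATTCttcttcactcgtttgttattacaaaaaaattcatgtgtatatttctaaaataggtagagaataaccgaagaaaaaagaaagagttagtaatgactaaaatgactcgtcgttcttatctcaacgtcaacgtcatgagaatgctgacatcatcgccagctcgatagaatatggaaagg

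In the longer window that also holds the 50 bases after the start, P1BS occurred in 6.22% of all 28008 genes, in 10.2% of the genes lower in line 4 and in 5.87% of the genes higher in it. The core of the W-box, TTGAC on both strands, which is bound by WRKY factors and cannot overlap P1BS, occurred in 50.5% of all windows, 54.7% of the lower and 53.7% of the higher genes. In the stretches shown, P1BS lay 213 and 90 bases before the start of SPX3, 180 before that of PLDZ2, 127 and 63 before that of GDPD1, 71 before that of ZAT6 and 184 before that of HHO3. These are matches of letters, and no test was made of them.

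Among the SPX sensors, 3 of the 4 genes were lower in line 4 (median -1.48). SPX1, which sequesters PHR1 at high Pi and is itself a PSi gene, had 40.6 and 45.7 RPKM in line 4 shoots, against 156 and 165 RPKM in WT (log2 -1.89, standard error 0.16, limma adjusted p = 3.4e-06). SPX2 had 18.7 and 20.9 RPKM in line 4, against 42.1 and 53.4 RPKM in WT (log2 -1.25, adjusted p = 1.4e-05). In SPX3 the 2 line 4 libraries differed among themselves, with 0.224 and 1.07 RPKM in line 4, against 1.79 and 3.04 RPKM in WT (log2 -1.71, adjusted p = 0.013), and its call was lost without line 4 replicate 1 (log2 -0.97, adjusted p = 0.16) or WT replicate 2 (log2 -1.36, adjusted p = 0.11). SPX4 had 9.61 and 10.08 RPKM in line 4, against 7.87 and 9.58 RPKM in WT (log2 0.18, adjusted p = 0.4).

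Of 16 tested genes for Pi uptake, trafficking and export, 5 were lower and 1 was higher. PHT4;1, a carrier of the thylakoid membrane, had 26.5 and 24.02 RPKM in line 4 shoots, against 81.7 and 88.5 RPKM in WT (log2 -1.74, standard error 0.09, limma adjusted p = 7.9e-08). PHT2;1, the low-affinity Pi carrier of the chloroplast envelope, had 14.4 and 11.3 RPKM in line 4, against 41.8 and 37.6 RPKM in WT (log2 -1.62, adjusted p = 2.5e-06). PHO1;H1, a homolog of the Pi exporter PHO1, had 3.04 and 3.55 RPKM in line 4, against 9.07 and 14.5 RPKM in WT (log2 -1.73, adjusted p = 6e-05). PHT1;4, a plasma membrane uptake carrier, and PHF1, which helps PHT1 carriers to leave the endoplasmic reticulum, were lower too (log2 -1.56, adjusted p = 0.00063 and log2 -1.44, adjusted p = 3.1e-06). PHO1, which loads Pi into the xylem, stood at 7.64 and 9.05 RPKM in line 4, against 7.91 and 7.55 RPKM in WT and PHT1;1 at 2.57 and 3.85 RPKM in line 4, against 1.99 and 1.92 RPKM in WT, neither of them called. The mitochondrial carrier PHT3;2 was the higher one (1.17 and 1.18 RPKM in line 4, against 0.437 and 0.361 RPKM in WT), and this call was lost whichever of the 4 libraries was left out (adjusted p of 0.089 to 0.13) and after rescaling (log2 1.03, adjusted p = 0.055). Of 3 tested glycerol-3-phosphate permeases, G3PP1 was lower, with 8.60 and 12.6 RPKM in line 4, against 29.5 and 35.9 RPKM in WT (log2 -1.62, adjusted p = 6.4e-05).

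Phosphatases and nucleases that release Pi followed, with 8 lower and 1 higher of 13 tested (median -1.39). PAP17, a purple acid phosphatase induced by starvation, had 12.2 and 13.6 RPKM in line 4 shoots, against 78.0 and 76.7 RPKM in WT (log2 -2.56, standard error 0.21, limma adjusted p = 2.8e-06). PAP10, a phosphatase of the root surface, had 10.8 and 12.4 RPKM in line 4, against 28.4 and 36.1 RPKM in WT (log2 -1.45, adjusted p = 3.5e-06). PS2, a phosphatase related to PECP1, had 1.78 and 8.37 RPKM in line 4, against 18.1 and 30.7 RPKM in WT, and its call was lost without line 4 replicate 1 (log2 -1.47, adjusted p = 0.063). Without that library or without WT replicate 2, only 5 genes of the list were lower. The higher gene, RNS1, a secreted ribonuclease, had 1.41 and 3.88 RPKM in line 4, against 1.11 and 0.848 RPKM in WT and was not called without line 4 replicate 2 (log2 0.44, adjusted p = 0.44), without either WT library or after rescaling. In SPX3, PS2, PAP14, PECP1 and RNS1 the higher of the line 4 values was that of replicate 2, the library with the higher values of root hair markers. Replicate 2 was also the higher, for instance, in SPX1, SPX2, PAP17, PAP10, GDPD1, MGD3 and ZAT6, and the lower in PHT4;1 and PHT2;1. The part of root hair cells in any of these values was not tested.

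Enzymes that exchange phospholipids for other lipids were lower in 5 of 17 cases and higher in none (median -0.81). GDPD1, a glycerophosphodiesterase, had 48.2 and 56.2 RPKM in line 4 shoots, against 189 and 199 RPKM in WT (log2 -1.89, standard error 0.19, limma adjusted p = 1.2e-05). MGD3, a galactolipid synthase of the plastid envelope, had 7.52 and 9.14 RPKM in line 4, against 32.1 and 43.6 RPKM in WT (log2 -2.14, adjusted p = 2.6e-06). DGD1, which makes digalactolipid, had 4.64 and 5.04 RPKM in line 4, against 17.01 and 19.8 RPKM in WT (log2 -1.87, adjusted p = 5.9e-06), and PLDZ2, a phospholipase D, had 1.93 and 2.69 RPKM in line 4, against 7.47 and 8.99 RPKM in WT (log2 -1.74, adjusted p = 7.3e-05). Sulfolipid genes had adjusted p under 0.05 without reaching 2-fold, with 76.1 and 73.0 RPKM in line 4, against 123 and 157 RPKM in WT for SQD1 (log2 -0.90) and 67.5 and 69.4 RPKM in line 4, against 109 and 133 RPKM in WT for SQD2 (log2 -0.81). GDPD2 stood apart from the list with 76.7 and 73.4 RPKM in line 4, against 33.9 and 53.8 RPKM in WT (log2 0.81, adjusted p = 0.013), below the required fold.

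Of 11 transcription factors of the response, 3 were lower and none higher. ZAT6, a zinc finger factor of root growth and Pi balance, had 15.8 and 18.8 RPKM in line 4 shoots, against 69.5 and 72.3 RPKM in WT (log2 -2.02, adjusted p = 0.00033). HHO2 and HHO3, relatives of the nitrate and Pi repressor HRS1, had log2 fold changes of -1.61 and -1.48. PHR1 itself had 34.8 and 34.4 RPKM in line 4, against 28.1 and 31.7 RPKM in WT (log2 0.21, adjusted p = 0.087). The circuit of miR399 and miR827 showed no call among 4 tested genes. Its target mimic IPS1 had 4.16 and 8.81 RPKM in line 4, against 5.72 and 7.36 RPKM in WT and AT4, a related mimic, 266 and 324 RPKM in line 4, against 261 and 259 RPKM in WT, neither of them called. NLA, a ubiquitin ligase for Pi carriers, had a log2 fold change of 0.89 and PHO2, a ubiquitin-conjugating enzyme, of -0.54 (adjusted p = 0.00015 and 0.0027), both short of the 2-fold required. Among 15 inositol phosphate genes, which supply the ligands of SPX proteins and break down inositol, MIOX2 and MIOX4 were higher and none lower. MIOX4 was not called without line 4 replicate 2 (log2 0.50, adjusted p = 0.21), without either WT library or with the day 3 libraries alone, and 1 of the 15 was lower after rescaling. Among 5 genes of phosphoenolpyruvate carboxylase and its kinases PPCK2 was lower (0 and 0.576 RPKM in line 4, against 1.51 and 1.44 RPKM in WT). The count of lower genes among these 5 was 0 without line 4 replicate 1, 2 without WT replicate 1 and 4 after rescaling.

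**Figure D3:**
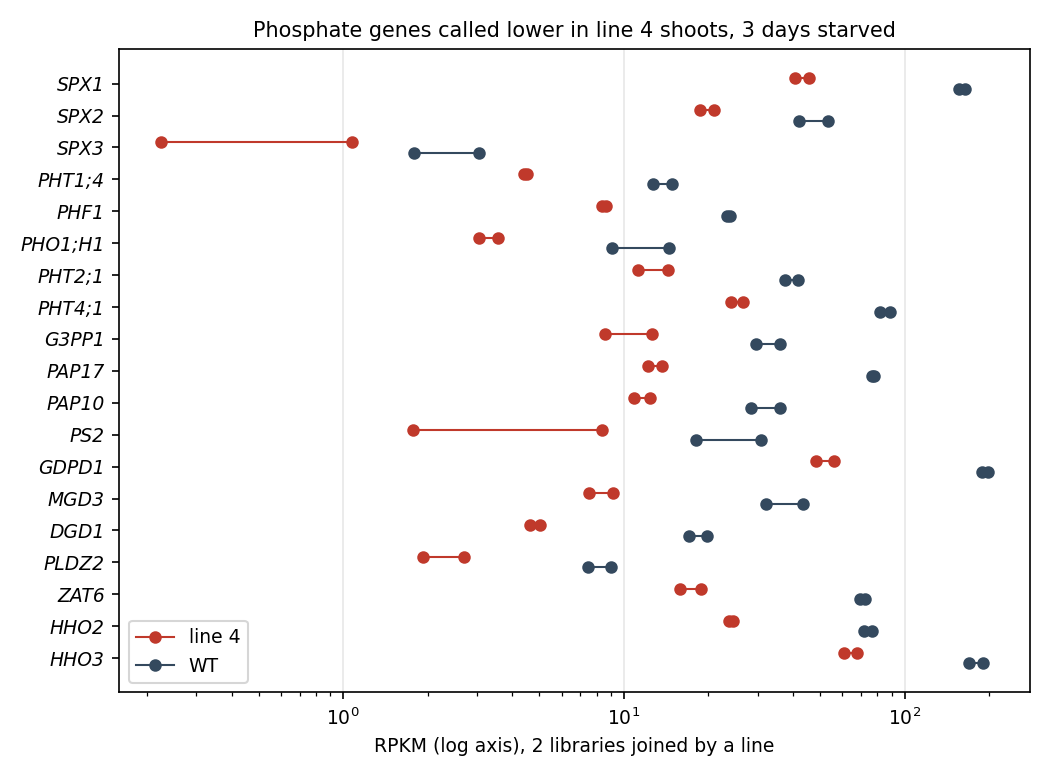
RPKM (log axis) of 19 phosphate genes called lower in line 4 shoots after 3 days of starvation, with the 2 libraries of a genotype joined by a line and line 4 drawn above WT for each gene. No pair of lines overlaps, as held for all 871 lower genes, and the line 4 libraries lie farthest apart in SPX3 and PS2.

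Of 13 tested genes of sulfate transport and sulfur deficiency, a list that includes LSU1, 6 were lower and none higher (median -0.69), and 7 were not called. Of the 6, APR2 was short of 2-fold without WT replicate 2 (log2 -0.95), and SDI1 was not called without either line 4 library or WT replicate 2 (adjusted p of 0.056 to 0.12). APR1, an adenylylsulfate reductase that commits sulfate to reduction, had 7.25 and 6.98 RPKM in line 4 shoots, against 39.2 and 55.9 RPKM in WT (log2 -2.68, standard error 0.23, limma adjusted p = 3.8e-06). APR3 had 10.6 and 8.87 RPKM in line 4, against 46.1 and 85.1 RPKM in WT (log2 -2.66, adjusted p = 1.8e-05). SULTR3;4, a member of the sulfate transporter family also known to move Pi, had 0.606 and 0.926 RPKM in line 4, against 3.03 and 2.65 RPKM in WT (log2 -1.62, adjusted p = 0.0012). The vacuolar exporter SULTR4;1 was not called, at 11.4 and 14.6 RPKM in line 4, against 11.2 and 13.7 RPKM in WT, nor was the root uptake carrier SULTR1;2 (log2 0.04).

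Several transcripts of dark-treated and carbon-starved leaves were higher in line 4. In the list of senescence and carbon starvation genes 4 of 14 were higher and 2 lower (median 0.06). SEN1, a rhodanese-like protein induced in the dark, had 639 and 771 RPKM in line 4 shoots, against 126 and 144 RPKM in WT (log2 2.38, adjusted p = 0.00021). ASN1, the asparagine synthetase that rises when carbon is short, had 362 and 364 RPKM in line 4, against 40.4 and 48.6 RPKM in WT (log2 3.03, standard error 0.26, limma adjusted p = 4e-06). DIN10, of the raffinose synthase family, and DIN4, a subunit of the branched-chain ketoacid dehydrogenase, had log2 fold changes of 1.28 and 1.39. Of the lower members, WRKY53, a transcription factor of senescence and defence, had 5.33 and 4.93 RPKM in line 4, against 18.1 and 30.3 RPKM in WT (log2 -2.14, adjusted p = 0.0013), and NAP, a senescence NAC factor, had 6.12 and 8.84 RPKM in line 4, against 19.1 and 15.97 RPKM in WT and lost its call without line 4 or WT replicate 1 (adjusted p = 0.089 and 0.072). SAG12, a protease gene of late senescence, was at 0 in all 4 libraries. NRT1.8, which retrieves nitrate from the xylem, had 16.8 and 20.8 RPKM in line 4, against 2.56 and 3.94 RPKM in WT (log2 2.47, adjusted p = 1.5e-05), the only higher gene of 14 tested for nitrate transport and assimilation. Meanwhile NIA1, NIA2 and NIR1 of nitrate reduction had log2 fold changes of -0.79, -0.63 and -0.85 with adjusted p under 0.05 and less than 2-fold.

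Some SAUR and other auxin-related genes were higher in line 4, and some of them differed between the lines. Of 62 tested SAUR genes, small auxin-induced transcripts of growing tissue, 22 were higher (35.5%) and 1 lower (1.61%), with a median of 0.61. Over all tested genes 3.81% were higher and 4.40% lower. After rescaling 14 SAUR genes were higher. Against WT at the same stage, 17 SAUR genes were higher and none lower in line 4 at sufficient Pi (2.59% and 0.622% of all tested genes), while after 1 day 7 were higher and 17 lower (3.08% and 2.76% of all). In line 12 after 3 days, 2 SAUR genes were higher and 1 lower than in WT, against 3.62% and 4.07% of all tested genes. IAA29, a repressor in auxin signalling, had 22.7 and 24.4 RPKM in line 4, 1.998 and 2.93 RPKM in line 12 and 1.21 and 1.06 RPKM in WT. It was higher in line 4 than in WT (log2 4.11, standard error 0.43, limma adjusted p = 1.6e-05) and lower in line 12 than in line 4 (line 12 over line 4: log2 -3.15, standard error 0.43, limma adjusted p = 0.0036). YUC9, an enzyme of auxin synthesis, had 4.24 and 3.03 RPKM in line 4, 1.02 and 0.732 RPKM in line 12 and 0.108 and 0.225 RPKM in WT. It was called in line 4 against WT (log2 3.22, adjusted p = 5.6e-05), while the difference of line 12 over line 4 missed the threshold (log2 -1.78, adjusted p = 0.065). XTH15, a xyloglucan-remodelling enzyme of the cell wall, had 80.5 and 79.3 RPKM in line 4, 31.6 and 39.8 RPKM in line 12 and 8.64 and 9.60 RPKM in WT (line 4 over WT: log2 3.099, adjusted p = 7.9e-08, and line 12 over line 4: log2 -1.17, adjusted p = 0.0032). SAUR20 had 24.7 and 27.3 RPKM in line 4, 6.61 and 10.2 RPKM in line 12 and 8.95 and 4.09 RPKM in WT. SAUR20, SAUR22, SAUR23 and AT5G18030 (SAUR21) are close copies of each other, so that reads may have been shared among them.

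The lines were compared directly in the same model, where 16 genes (0.0809%) were higher and 64 (0.324%) lower in line 12 than in line 4 after 3 days. FLP1, related to a flowering promoting factor, had 2.82 and 2.51 RPKM in line 4, 0.198 and 0.216 RPKM in line 12 and 0.182 and 0 RPKM in WT. AT5G46890, annotated as a lipid-transfer-like protein, had 2.92 and 1.65 RPKM in line 4, 0.0994 and 0 RPKM in line 12 and 0 in both WT libraries. These genes were low in line 12 and WT alike. The early auxin genes IAA5 and IAA6 had log2 differences, line 12 over line 4, of -2.32 and -2.34. In the other direction, the thioredoxin-like gene AT4G15680 had 3.24 and 2.52 RPKM in line 4, 10.7 and 15.0 RPKM in line 12 and 22.5 and 26.2 RPKM in WT (line 12 over line 4: log2 2.06, adjusted p = 6.1e-05). Its neighbour AT4G15670, of the same family, had 2.56 and 1.82 RPKM in line 4, 9.42 and 11.1 RPKM in line 12 and 14.6 and 17.2 RPKM in WT. Over the 754 genes higher in line 4 than in WT, 48 were lower in line 12 than in line 4 and none was higher, and line 4 libraries enter both comparisons. Lines 4 and 12 share the WT libraries, so their effects against WT are given side by side, 754 genes up and 871 down in line 4, with 716 up (3.62%) and 804 down (4.07%) in line 12.

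**Figure D4:**
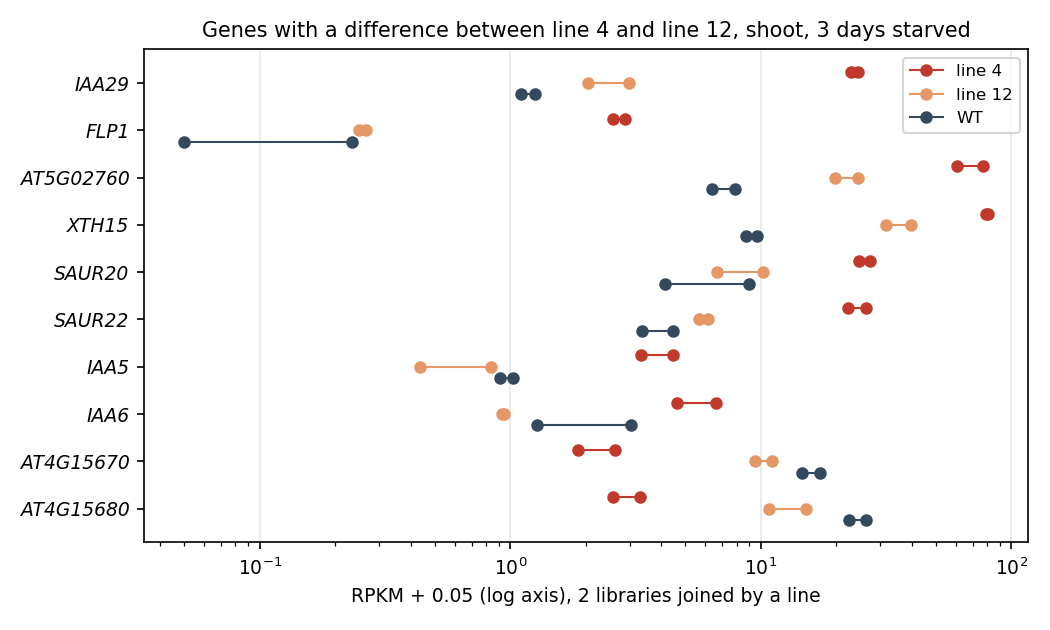
RPKM plus 0.05 (log axis) in shoots of line 4, line 12 and WT after 3 days of starvation for 10 genes called in the comparison of the lines, with the 2 libraries of a group joined by a line. IAA29, FLP1, XTH15 and the SAUR and IAA genes are highest in line 4, and AT4G15670 and AT4G15680 are lowest in it.

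Defence genes were mixed. Of 26 tested genes of salicylate synthesis and response, 2 were higher and 2 lower (median 0.34), with 1 and 0 higher without line 4 replicates 1 and 2 and 0 and 4 higher without WT replicates 1 and 2. WRKY70, a regulator between the salicylate and jasmonate pathways, had 59.7 and 59.2 RPKM in line 4 shoots, against 165 and 205 RPKM in WT (log2 -1.62, adjusted p = 0.0013). CBP60G, which activates salicylate synthesis, had 6.54 and 6.96 RPKM in line 4, against 23.5 and 25.8 RPKM in WT (log2 -1.83, adjusted p = 0.0019). PR1, the classical marker of salicylate response, had 23.1 and 61.3 RPKM in line 4, against 5.47 and 8.16 RPKM in WT, a difference that did not pass the test (log2 2.45, adjusted p = 0.077). PR2, a glucanase, was called (log2 1.56, adjusted p = 0.042) but not when any of the 4 libraries was left out (adjusted p of 0.051 to 0.25). In the jasmonate list 5 of 29 were higher and none lower (median 0.66), 3 without WT replicate 1. JAZ10, a repressor of jasmonate signalling, had 7.88 and 7.74 RPKM in line 4, against 2.17 and 2.19 RPKM in WT (log2 1.73, adjusted p = 0.0037), and CYP94C1, which breaks down the active hormone, 8.22 and 12.7 RPKM in line 4, against 0.999 and 2.39 RPKM in WT (log2 2.53, adjusted p = 0.0026).

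The joint list of camalexin and glucosinolate genes held 3 higher and 4 lower genes of 14, and the other 7 were not called. Besides PAD3, CYP71A12 and CYP71A13 of the camalexin branch were higher (log2 1.75, adjusted p = 0.033 and log2 2.49, adjusted p = 0.0063), but CYP71A12 was not called without either line 4 library or WT replicate 1 (adjusted p of 0.063 to 0.18), nor CYP71A13 without line 4 replicate 2 (adjusted p = 0.066). They are near copies. All 4 lower genes act in aliphatic glucosinolate synthesis. CYP79F1, the entry enzyme, had 10.4 and 8.89 RPKM in line 4 shoots, against 51.6 and 47.0 RPKM in WT (log2 -2.32, adjusted p = 3e-05). MYB29, a regulator of the branch, had 2.44 and 2.59 RPKM in line 4, against 10.7 and 10.4 RPKM in WT (log2 -1.96, adjusted p = 1.5e-06), and BCAT4 and CYP83A1 had log2 fold changes of -1.36 and -1.13.

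Anthocyanin genes, which starved plants turn on as their leaves redden, were lower or not called. Of 15 enzymes 4 were lower and none higher (median -0.57). PAL1 and LDOX were not called without WT replicate 2, LDOX also without line 4 replicate 1, and F3H without line 4 replicate 2. TT19, a glutathione transferase that carries anthocyanin to the vacuole, had 3.04 and 3.35 RPKM in line 4 shoots, against 11.6 and 8.23 RPKM in WT (log2 -1.54, adjusted p = 0.00083). Of 9 regulators 3 were lower, among them MYB75, the main activator, with 0.299 and 0.280 RPKM in line 4, against 2.31 and 1.59 RPKM in WT (log2 -2.01, adjusted p = 0.0024), and LBD37, a repressor, with 31.0 and 35.8 RPKM in line 4, against 107 and 102 RPKM in WT (log2 -1.64, adjusted p = 1.1e-05). The other was MYBL2, also a repressor (log2 -1.06).

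All 40 tested photosynthesis genes had log2 fold changes below 0, as did 7073 of all 19773 tested genes. Of the 40 photosynthesis genes, 4 were lower by the test (median -0.40). These were light-harvesting genes of photosystem II. LHCB2.1 had 888 and 814 RPKM in line 4 shoots, against 3193 and 2785 RPKM in WT (log2 -1.81, adjusted p = 2.3e-06), and LHCB2.2, LHCB2.3 and LHCB1.1 had log2 fold changes of -1.37, -1.58 and -1.12. They are close copies of other light-harvesting genes. The sums of green tissue markers, some of them members of this list, were lower in line 4 as given above, and their part in these values was not tested. RBCS1A, a small subunit of Rubisco, had 7355 and 6535 RPKM in line 4, against 9685 and 8424 RPKM in WT (log2 -0.38), less than 2-fold. Of 11 tested clock genes 3 were lower (median -0.52), all with peaks in the morning. CCA1 had 0.438 and 0.418 RPKM in line 4, against 2.17 and 2.75 RPKM in WT (log2 -1.99, adjusted p = 7.9e-05) and PRR9 0.393 and 0.117 RPKM in line 4, against 1.53 and 1.91 RPKM in WT (log2 -2.01, adjusted p = 0.00039), and RVE8 had a log2 fold change of -1.58. The evening genes TOC1 and ELF4 stood at 94.2 and 91.7 RPKM in line 4, against 66.8 and 74.8 RPKM in WT and 107 and 109 RPKM in line 4, against 111 and 106 RPKM in WT. The time of harvest of each library was not given in the sources used here.

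Ferritins, which store iron in plastids, were higher in 3 of 7 tested genes of iron storage (median 0.61). FER1 had 311 and 409 RPKM in line 4 shoots, against 128 and 114 RPKM in WT (log2 1.56, adjusted p = 0.00011), and FER3 had 91.4 and 98.7 RPKM in line 4, against 42.3 and 46.9 RPKM in WT (log2 1.09, adjusted p = 4.6e-05), less than 2-fold after rescaling (log2 0.93). FER2 was also called, but not without line 4 replicate 1 (log2 1.27), line 4 replicate 2 (log2 1.18) or WT replicate 1 (log2 0.67). Of 14 genes of iron uptake and transport 1 was higher and 2 were lower. The higher one, YSL1, was short of 2-fold after rescaling (log2 0.85) and without line 4 replicate 2 or WT replicate 1, and NAS1 was short of it without line 4 replicate 1 or WT replicate 1. Of 12 dehydration and cold genes 2 were lower, CBF1 and CBF2 (log2 -1.85, adjusted p = 0.0018 and log2 -2.04, adjusted p = 0.00037), factors of cold response. Cell wall enzymes of the expansin and xyloglucan families had 6 higher and 6 lower of 43. EXPA16 had 9.68 and 11.2 RPKM in line 4, against 1.54 and 1.75 RPKM in WT (log2 2.49, adjusted p = 2.6e-06), and EXPB1 1.05 and 0.598 RPKM in line 4, against 3.23 and 2.496 RPKM in WT (log2 -1.56, adjusted p = 0.0011). Glutathione transferases had 6 higher and 4 lower of 49, with 2 higher without line 4 replicate 2 or WT replicate 1, and CRK receptor kinases 3 higher and 3 lower of 35. Class III peroxidases had 6 higher and none lower of 41, cytochromes P450 14 higher and 28 lower of 136 (7 higher without line 4 replicate 2 and 9 after rescaling), AP2/ERF factors 5 higher and 12 lower of 73, WRKY factors 2 higher and 6 lower of 57 and UMAMIT transporters 2 higher and 5 lower of 36. No WRKY gene was higher after rescaling or without line 4 replicate 2, and WRKY58 also lost its call without line 4 replicate 1 or WT replicate 1. Over all tested genes 3.81% were higher and 4.40% lower. WRKY33, a factor of camalexin and pathogen response, had 31.2 and 36.5 RPKM in line 4, against 128 and 182 RPKM in WT (log2 -2.17, adjusted p = 0.0008). Of 315 ribosomal proteins 1 was higher and 1 lower, 1 of 9 strigolactone genes was lower, and none was called among 5 vacuolar proton pump genes, 10 aquaporins and 10 heat shock genes.

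The 3-day effect was set beside that of the same line at the other Pi supplies, which use other libraries and younger seedlings. Of the 754 higher genes 313 were also higher after 1 day (41.5% of them and 51.4% of the 609 higher at 1 day, 3.08% of all tested genes), and of the 871 lower genes 377 were also lower (43.3% of them and 69.2% of the 545, 2.76% of all). Of the 871 genes lower at 3 days, 130 were higher in line 4 at sufficient Pi (14.9% of them and 25.4% of the 512 higher there, 2.59% of all), and 20 were lower (2.3%, against 0.622% of all). Of the 754 genes higher at 3 days, 87 were higher and 39 lower at sufficient Pi (11.5% and 5.17%). Across the tested genes without the 313 mentioned, the effect at 3 days had a Pearson correlation of 0.70 with that at 1 day and of -0.13 with that at sufficient Pi. With those genes it was 0.48 and 0.04. Genes are not independent replicates.

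The difference between the effects was tested as an interaction, by adjusted p alone, and 3617 genes (18.3%) had a higher and 2270 (11.5%) a lower effect at 3 days than at sufficient Pi. After rescaling these were 2177 and 2952. The gene with the lowest difference was LSU1, for which sufficient Pi gave 7.56 and 5.83 RPKM in line 4, against 0.567 and 1.02 RPKM in WT (interaction log2 -7.10, standard error 0.88, limma adjusted p = 6.9e-05). At sufficient Pi it was above the WT level (log2 2.76, adjusted p = 0.015), and at 3 days below it. APR1 had 39.6 and 32.4 RPKM in line 4, against 10.8 and 6.87 RPKM in WT at sufficient Pi (log2 -4.70, adjusted p = 1.1e-06 for the interaction). PAP17 followed the same course among phosphate genes, with 8.70 and 5.92 RPKM in line 4, against 2.71 and 1.54 RPKM in WT at sufficient Pi (log2 -4.25, adjusted p = 1.1e-06). ERD5 went the other way and had 158 and 148 RPKM in line 4, against 349.6 and 394 RPKM in WT at sufficient Pi (log2 5.16, standard error 0.26, limma adjusted p = 1.3e-07). MIOX2 had 97.7 and 106 RPKM in line 4, against 197 and 222 RPKM in WT there (log2 5.15, adjusted p = 4.8e-06), and ASN1 62.7 and 62.3 RPKM in line 4, against 158 and 165 RPKM in WT (log2 4.39, adjusted p = 4.3e-06). WRKY70 had 219 and 111 RPKM in line 4, against 26.7 and 37.7 RPKM in WT (log2 -3.91, adjusted p = 3.3e-05), and in the salicylate list 18 of 26 genes were higher at sufficient Pi, against 2 at 3 days. For PAP26 and PAD3 the interaction missed the threshold (log2 0.16, adjusted p = 0.64 and log2 0.19, adjusted p = 0.89).

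**Figure D5:**
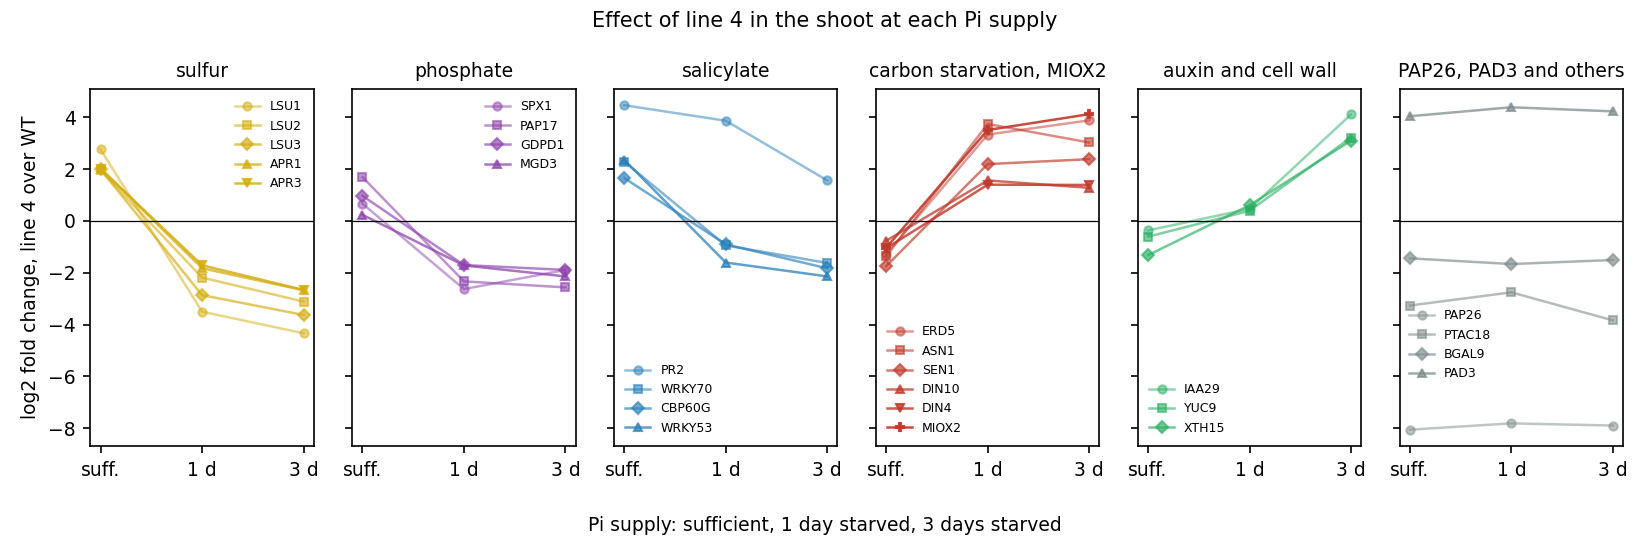
Log2 fold change of line 4 over WT in the shoot at sufficient Pi, after 1 day and after 3 days of starvation for 26 genes in 6 panels, a line for each gene. The effects on the sulfur and phosphate genes shown lie above 0 at sufficient Pi and below it after 1 and 3 days. Those on ERD5, ASN1, SEN1, DIN10, DIN4 and MIOX2 lie the other way round. Those on IAA29, YUC9 and XTH15 exceed 3 at 3 days, against at most 0.60 at the other supplies. The genes shown were picked. At sufficient Pi, 6 of all 90 tested phosphate genes were higher and 3 lower, and 4 of 13 tested sulfur genes were higher and 0 lower.

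In roots at the same time 93 genes (0.453%) were higher and 159 (0.774%) lower in line 4 by the same rule, of 20530 tested. Of the 754 genes higher in the shoot, 679 were tested in the root and 32 were higher there, and of the 871 lower ones 765 were tested and 55 lower. Few genes were called throughout. In all, 8 genes were higher and 13 lower in line 4 shoots at all 3 supplies and in roots at 3 days. In line 12 shoots at 3 days, against the same WT libraries, 5 of the 8 were higher and 11 of the 13 lower. The lower ones include PAP26, PTAC18 and BGAL9 and, chosen after their values were seen, PHYD, a photoreceptor for red light, with 1.37 and 1.29 RPKM in line 4 shoots, against 4.31 and 4.40 RPKM in WT, and RUG1, with 1.52 and 0.700 RPKM in line 4, against 6.42 and 7.39 RPKM in WT. The higher ones include MAF5, a flowering repressor, with 15.74 and 16.6 RPKM in line 4, against 2.25 and 2.68 RPKM in WT. Of the 13 lower genes 4 lie between bases 13672250 and 15052239 of chromosome 2, PTAC18 and BGAL9 among them, 245871 bases apart.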

How the data were processed

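Total RNA of pooled shoots was sequenced as paired reads, and the authors trimmed the reads and mapped them to the Arabidopsis genome (TAIR10) with CLC Genomics Workbench (version not given in the sources used here), which gave RPKM per gene and library. The deposited RPKM were used as they stood. Library totals were recovered from them with exon lengths of the RefSeq annotation, and the deposited gene lengths were not used. With these totals and lengths, 21.9% of genes came to whole read numbers in every library. RPKM are relative within a library, so that a change in a few abundant transcripts shifts all others. The submitters' processing notes name TAIR 10. Strand was not stated, so overlapping antisense genes cannot be told apart, and how reads of near-identical genes were shared is not given in the sources used here. Deposited averages, log2 ratios and gene lists of the authors' own comparisons were not used.

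Values were taken as log2(RPKM + 0.25). The 18 shoot libraries in 9 groups entered a limma 3.58.1 model (R 4.3.3) with group means, a mean-variance trend and Benjamini-Hochberg adjustment, and the 18 root libraries a model of their own. The effect of line 4 at sufficient Pi was subtracted from that at 3 days as an interaction. Depth was 23.5 to 31.6 M reads in the 4 libraries, and 2 libraries a genotype limit the precision. The methods call the replicates biological, and no source used here says that they came from separate cultures, so p-values measure the spread between these libraries. Named were the PHT5 genes, the 12 largest changes in each direction with libraries that did not overlap, called members of each list up to 6 by size, well-known members of the lists, PAP26, PTAC18 and BGAL9, and the 5 largest interactions in each direction. Genes where the lines differ and genes called throughout were named after their values were seen. Members and lists were chosen with earlier results of these data known. Promoter stretches and gene positions came from RefSeq for TAIR10.1, whose gene starts can differ from the authors' models. Alternatives were a pseudocount of 1 RPKM, no filter, rescaled libraries, day 3 libraries alone, a 1.5-fold threshold, exclusion of the 313 genes, a replicate block and each library left out. The fit was tested on simulated data in which 200 genes were changed. It recovered 44% of those changed by a log2 of 1.0, 86% at 1.5, 90% at 2.0 and 94% at 3.0. Of 159 calls there, 2 were false. A gene that was not called can therefore still have changed by about 2-fold. Python 3.11.15 with pandas 2.3.3, numpy 2.4.6 and matplotlib 3.10.9 made tables and plots.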

Additional observations from a re-analysis of the deposited data

Results flagged for a closer look

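The effect of line 4 after 3 days differed from that at sufficient Pi in 3617 genes (higher at 3 days) and 2270 genes (lower at 3 days), by the limma interaction at an adjusted p under 0.05. The 5 largest in each direction among these genes, leaving out the 313 genes mentioned above, are given as log2 differences of the effects. LSU1 had -7.0951, LSU3 had -5.6199 and LSU2 had -5.0603. AT1G72920, a TIR domain protein, had -5.0534 (adjusted p = 1.4e-06), with 2.78 and 2.51 RPKM in line 4, against 20.6 and 24.3 RPKM in WT at 3 days, and 15.1 and 8.75 RPKM in line 4, against 2.46 and 2.59 RPKM in WT at sufficient Pi. AT5G64170 (LNK1) had -4.9638 (adjusted p = 5.2e-08), with 13.1 and 11.5 RPKM in line 4, against 4.76 and 3.79 RPKM in WT at sufficient Pi. In the other direction, ERD5 had 5.1609, MIOX2 had 5.1535, IAA29 had 4.4772 and XTH15 had 4.4209. AT1G19530 had 4.6356 (adjusted p = 1.1e-06), with 12.8 and 15.8 RPKM in line 4, against 1.85 and 1.76 RPKM in WT at 3 days, and 1.47 and 2.09 RPKM in line 4, against 6.87 and 6.79 RPKM in WT at sufficient Pi.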

How the results depend on the processing

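With rescaled libraries 491 genes were higher and 115 PSr genes were higher, and with a 1.5-fold threshold 2417 genes were higher and 1666 lower, when the sets called anew at 1.5-fold held 1303 PSi and 1148 PSr genes, with 763 PSi genes lower, 19 PSi genes higher, 24 PSr genes lower and 530 PSr genes higher. Rescaling gave 913 PSi and 330 PSr genes. When 1 library was left out, the genes higher numbered 495 to 878 and the genes lower 776 to 849, and 6 to 14 PSi genes were higher (6 on leaving out WT replicate 2 at day 0 or day 1) and 3 to 9 PSr genes lower (3 on leaving out WT replicate 2 at day 0 and 9 on leaving it out at day 1). Leaving out libraries of sufficient Pi or 1 day was chosen after seeing the data. The interaction gave 4194 to 5927 genes under its alternatives, against 5887. With a replicate block 754 genes were higher and 873 lower, the interaction gave 5883 genes, and no call of a named gene changed. The numbers were not taken as a pairing, since the residual correlation of same-numbered line 4 and WT libraries at 3 days was 0.041, with -0.18 to 0.70 over 36 pairs of groups. Of 167 named genes, those called at 3 days together with PHT5;1 and PHT5;3, none reversed under any alternative. Calls were lost by 5 with a pseudocount of 1 RPKM, 4 without a filter, 10 after rescaling, 3 with day 3 libraries alone and 18 to 26 without 1 library. Differences of low genes are limited by depth, since 0.25 RPKM stands for 8.80 to 11.9 reads in a gene of 1500 bases.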
